A study of Mus musculus with 24 samples.

Results

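The subject is the accessibility of endogenous retrovirus sequence of the ERVK and ERV1 families in striatal neurons of mice with an expanded Htt allele. ATAC-seq, which reads where the Tn5 transposase can cut DNA, was run on 50000 sorted NeuN-positive nuclei per animal from striatum of C57BL/6 mice aged 12 months. The members were all peaks of the deposited count table on chromosomes 1 to 19 whose detailed annotation named a repeat of class LTR and family ERVK or ERV1. They numbered 4169 of 147020 peaks (2.836%), with 3456 annotated as ERVK and 713 as ERV1. After the filter on low counts 4137 of the 4169 were tested, 3428 of ERVK and 709 of ERV1.

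There were 6 animals in each of 4 genotypes, 3 females and 3 males. Q140_Msh3KO animals were heterozygous for the Q140 knock-in, an Htt allele with a long CAG repeat used as a model of Huntington's disease, and had no functional Msh3. Q140 animals carried the same heterozygous knock-in with Msh3 intact. Msh3KO animals lacked Msh3 and had no knock-in, and WT animals had neither change. Htt encodes huntingtin, and Msh3 encodes a mismatch repair protein that is needed for somatic growth of CAG repeats. Where a sample of sorted nuclei shows fewer counts at a peak, fewer open nuclei and less opening per nucleus cannot be told apart.

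Endogenous retroviruses are remains of retroviruses that entered the germline. A full copy has an internal part with the former viral genes between 2 long terminal repeats (LTRs), which hold the promoter and enhancer sequence, and many copies are now a solitary LTR. In the mouse, ERVK includes the intracisternal A particle (IAP) elements, some of which can still move, and many older LTR groups such as RMER6. ERV1 holds relatives of murine leukaemia viruses. Young copies are kept closed by KRAB zinc finger proteins that recruit TRIM28 and the histone methyltransferase SETDB1, and by DNA methylation. Some older LTRs serve as enhancers of host genes.

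The members carried 289 subfamily names, and 35 subfamilies had 20 or more tested peaks. By the name, 1805 tested members were internal sequence (names ending in -int) and 2332 were LTRs. IAPEz-int, the internal part of the youngest IAP group, alone gave 1083. Of the tested members 2757 (66.6%) were intergenic and 1380 were intronic, against 37.1% intergenic over all tested peaks. They were narrower than all tested peaks (median 296 against 397 bases), weaker (median 2.32 against 3.43 CPM, counts scaled to equal library size, in WT) and farther from an annotated start (median 46.6 against 28.8 kb). By the distances listed in the table, 11 members lay within 1 kb of a start.

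Sequence was at hand for the 21 members that overlap a RefSeq promoter window (GRCm38.p6, 250 bases before to 50 after a start). For most of them the deposited table lists the start of another gene as the nearest. Of the 21, 4 were called lower in Q140 than in WT and 0 higher, where 6.11% of all tested peaks were lower and 4.2% higher. The overlapping stretches of these 4 are shown because they are the members whose change falls on an annotated start, and 3 stretches of uncalled members are set beside them. Sequences run 5′ to 3′ on the strand of the gene, and capitals mark matches to any of 9 searched motifs on either strand.
1700022E09Rik, LTRIS_Mm, chr16:59469189-59469266, minus strand, called lower: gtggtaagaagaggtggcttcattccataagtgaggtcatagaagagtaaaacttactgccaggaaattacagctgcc
Anapc15, RLTR26C_MM, chr7:101885828-101885909, plus strand, called lower: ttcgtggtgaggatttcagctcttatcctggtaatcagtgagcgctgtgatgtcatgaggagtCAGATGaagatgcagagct
Gm3474, RMER17B, chr13:117959028-117959327, minus strand, called lower: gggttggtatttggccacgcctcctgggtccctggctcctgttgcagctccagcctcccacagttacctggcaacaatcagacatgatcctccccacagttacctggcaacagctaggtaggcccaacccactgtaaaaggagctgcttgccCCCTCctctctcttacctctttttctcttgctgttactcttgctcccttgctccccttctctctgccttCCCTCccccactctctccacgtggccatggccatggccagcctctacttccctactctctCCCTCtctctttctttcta
1700048O20Rik, RMER21A, chr9:121937025-121937324, plus strand, called lower: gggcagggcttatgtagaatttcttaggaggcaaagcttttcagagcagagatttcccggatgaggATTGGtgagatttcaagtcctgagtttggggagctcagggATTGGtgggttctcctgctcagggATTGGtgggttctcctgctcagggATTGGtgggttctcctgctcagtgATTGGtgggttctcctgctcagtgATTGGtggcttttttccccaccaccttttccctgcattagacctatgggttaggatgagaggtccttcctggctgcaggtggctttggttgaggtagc
4930553P18Rik, RodERV21-int, chr6:86004162-86004402, plus strand, not called: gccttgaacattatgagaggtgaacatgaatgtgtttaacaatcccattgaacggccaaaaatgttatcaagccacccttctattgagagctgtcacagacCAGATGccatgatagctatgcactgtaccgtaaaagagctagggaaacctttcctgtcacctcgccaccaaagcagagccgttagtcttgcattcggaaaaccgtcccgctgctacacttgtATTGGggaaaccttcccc
Gm52042, IAPEY4_LTR, chr13:25007466-25007765, plus strand, not called: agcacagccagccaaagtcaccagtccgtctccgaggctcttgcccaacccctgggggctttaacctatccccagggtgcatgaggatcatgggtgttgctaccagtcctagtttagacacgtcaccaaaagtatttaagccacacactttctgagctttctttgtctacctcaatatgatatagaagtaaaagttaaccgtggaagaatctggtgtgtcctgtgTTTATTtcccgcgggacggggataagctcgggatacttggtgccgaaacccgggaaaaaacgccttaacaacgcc
Gm52720, IAPEY4_I-int, chr4:3200250-3200483, minus strand, not called: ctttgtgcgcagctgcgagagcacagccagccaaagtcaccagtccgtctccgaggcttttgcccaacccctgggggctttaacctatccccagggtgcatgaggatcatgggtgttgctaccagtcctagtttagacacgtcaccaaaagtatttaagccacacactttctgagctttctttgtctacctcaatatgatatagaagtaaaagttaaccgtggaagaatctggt

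The LTRIS_Mm peak at 1700022E09Rik held a mean of 2.6 CPM in Q140 and 6.71 CPM in WT (log2 fold change -1.37, adjusted p = 9.52e-08, edgeR). The RLTR26C_MM peak at Anapc15, a subunit of the anaphase-promoting complex, held 6.8 CPM in Q140 and 14.3 CPM in WT (log2 -1.06, adjusted p = 4.73e-07). The RMER17B peak at Gm3474 held 5.23 and 8.09 CPM in Q140 and WT, and the RMER21A peak at 1700048O20Rik 15.5 and 20.7 CPM. The IAPEY4 stretches at Gm52042 and Gm52720, on different chromosomes, shared an unbroken run of 175 identical bases, and the next longest run shared by any pair of the 21 was 13 bases. Reads from such near-identical copies cannot be placed with certainty, and how the authors treated them is not given in the sources used here. The searched motifs were the TATA box (TATAAA), the polyadenylation signal (AATAAA), the AP-1 site (TGACTCA), the cyclic AMP element (TGACGTCA), an E-box of neuronal factors (CAGATG), the ETS site (CCGGAAGT), the MEF2 site (CTATTTTTA), a part of the CTCF site (CCCTC) and, added after the sequences were seen, the CCAAT box. The last matched 6 times in the RMER21A stretch, each time as its reverse complement ATTGG, and once at 4930553P18Rik, and 37.4% of all 32851 windows of 300 bases hold it. CCCTC matched 3 times in the RMER17B stretch (66% of windows hold it), and the E-box once each in the Anapc15 and 4930553P18Rik stretches (17.2% of windows). The polyadenylation signal matched once at Gm52042 (19.6% of windows). The other 5 motifs, held by 0.493 to 13.6% of windows, matched in none of the 7 stretches. A match is a description of the letters and not a site.

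Library depth ran from 4372251 to 11736557 counts in peaks, and 1.10 to 1.66% of a library's counts fell in members. As a check of the neuronal sort, the 15 peaks at starts of 8 striatal projection neuron genes summed to 208 to 326 CPM per library. Peaks at starts of 1 of 5 astrocyte, 2 of 5 microglia and 2 of 3 endothelial genes summed to at most 14.2 CPM for a list in any library. The 5 peaks at 4 of 5 oligodendrocyte genes summed to 27.1 to 43.9 CPM. These sums cover unlike numbers of peaks. Per peak, genotype means were 16.6 to 17.8 CPM for projection neuron genes and 6.67 to 7.1 CPM for oligodendrocyte genes. For the astrocyte, microglia and endothelial lists they were 1.94 to 3.24 CPM. None of these marker peaks was called in Q140 vs WT, and the part of other cell types in the results was not tested. Library Q140_Msh3KO M1 stood apart, with 12.66% of its counts in its 10 largest peaks, against 2.519 to 6.821% in the other libraries. The X chromosome took 1.466% of the counts of Q140 F2, labelled female, where the lowest other female library had 1.724% and the males spanned 1.485 to 1.589%. Without these 2 libraries Q140 vs WT gave 286 called members in place of the 319 below. Genotypes were taken as labelled, since neither allele need change a peak count.

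Summed levels differed between the kinds of member. The LTR members together held 8360 ± 463 CPM in Q140_Msh3KO, 8004 ± 436 CPM in Q140, 8763 ± 421 CPM in Msh3KO and 8945 ± 238 CPM in WT (SD, n = 6 each). Of the Q140 libraries 5 lay between 7630 and 8089 CPM, and Q140 F1 at 8836 CPM reached into the WT range of 8664 to 9207 CPM. IAPEz-int peaks held 2832 ± 797 CPM in Q140_Msh3KO, 2860 ± 674 CPM in Q140, 2907 ± 906 CPM in Msh3KO and 3040 ± 658 CPM in WT. The SD within each genotype was larger than any difference between these means. The highest library of each genotype, Q140_Msh3KO M1 (4366), Q140 F1 (4026), Msh3KO F2 (4183) and WT M1 (4052 CPM), stood well above the median of their genotype. The 156 RMER6 peaks held 541 to 614 CPM in Q140_Msh3KO, 495 to 575 CPM in Q140, 609.8 to 679 CPM in Msh3KO and 599.8 to 839.7 CPM in WT. The Q140 and WT libraries did not overlap for RMER6, and the Q140_Msh3KO libraries lay between and touched both ranges. RMER6 was picked by its lower calls in Q140 vs WT in these same libraries, so this separation is a description.

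**Figure D1:**
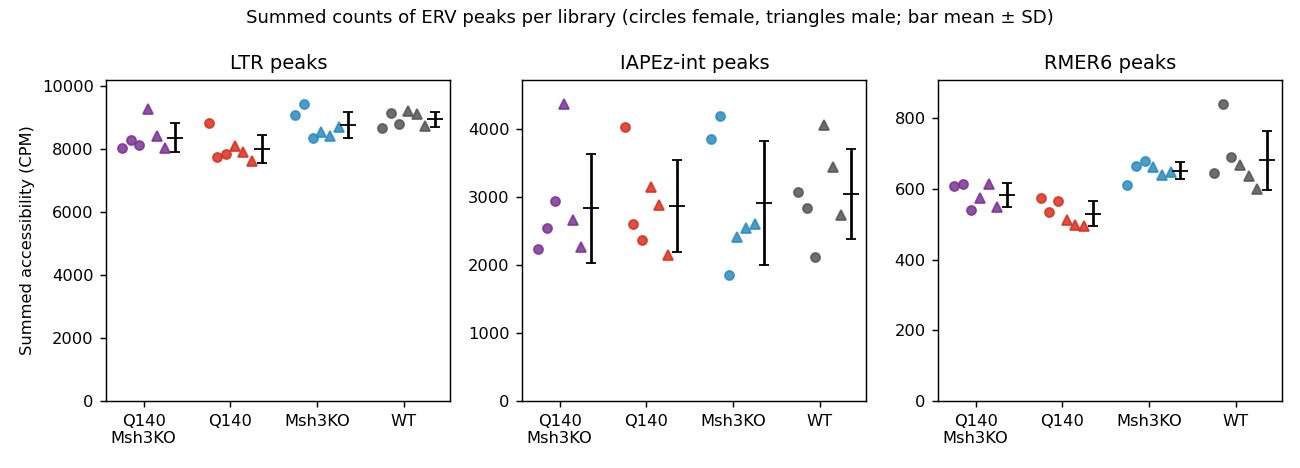
Summed accessibility in CPM per library of LTR members, IAPEz-int members and RMER6 members, by genotype, with mean ± SD beside the points. RMER6 levels of Q140 (495 to 575 CPM) lie below those of WT (599.8 to 839.7 CPM), while the IAPEz-int ranges of the 4 genotypes overlap. RMER6 was picked by its lower calls between these Q140 and WT libraries.

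Q140 against WT asks what the expanded allele does to these elements with Msh3 present. In Q140, 245 members were lower and 74 were higher than in WT, 319 of 4137 (7.71%), against 10.3% of all 146155 tested peaks (4.2% higher and 6.11% lower). Of the members 5.92% were called lower and 1.79% higher. The median log2 fold change over members was -0.095, against -0.007 over all tested peaks. Among the called members the median log2 change was -0.81 for the lower ones (range -0.39 to -2.48) and 0.81 for the higher ones (0.42 to 2.04). ERVK gave 49 higher and 193 lower members, and ERV1 25 higher and 52 lower. Calls were made at adjusted p under 0.05 in edgeR's quasi-likelihood test over all peaks. In the same test 14.0% of 3761 peaks of the ERVL and MaLR families, the third LTR class, were called, and 3.98% of 12032 L1 peaks. The lean to lower values was thus not particular to the members. Of the ERVL and MaLR peaks 11.1% were lower and 2.87% higher, with a median log2 change of -0.1. Of the L1 peaks 2.53% were lower and 1.45% higher, with a median of -0.069.

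LTRs and internal parts were counted apart by the name alone. The name need not give the part that a peak covers. The IAPEY4_I-int and IAPEY4_LTR stretches above shared 175 identical bases. Of 2332 LTR members 217 were lower and 60 higher in Q140 (11.9%), and of 1805 internal members 28 were lower and 14 higher (2.33%). Fewer peaks are called where counts are low, so the shares were also set side by side at like levels. Among members with 5 to 10 CPM on average, 24.8% of LTRs and 8.25% of internal parts were called lower, against 11.4% of all tested peaks. At 10 CPM or more these shares were 21.6% of 116 LTRs, 9.09% of only 22 internal parts, and 8.82% of all tested peaks. Called-higher shares of LTRs were at or under those of all peaks at every level.

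**Figure D2:**
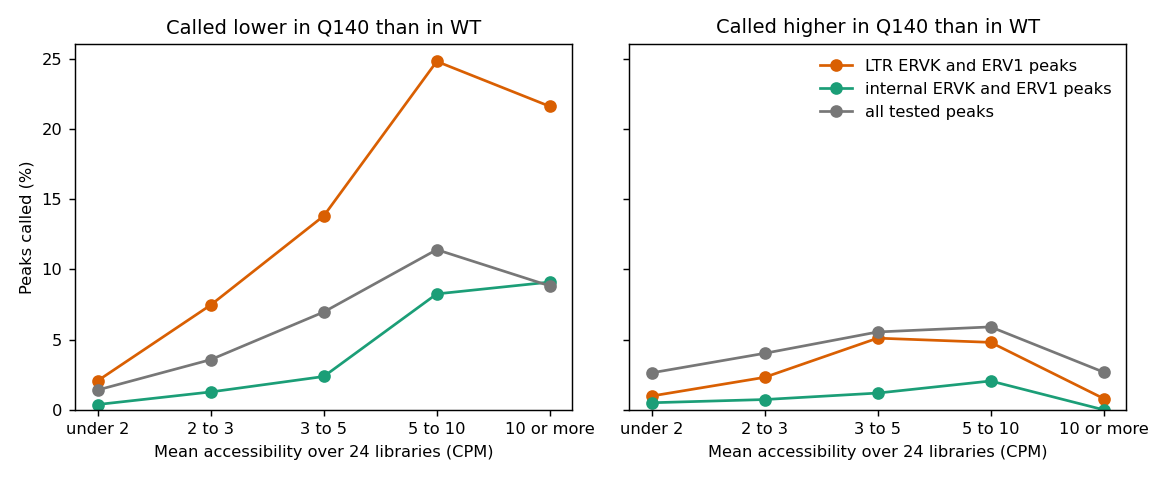
Percentage of peaks called lower (left) or higher (right) in Q140 than in WT by mean accessibility in CPM, for LTR members, internal members and all tested peaks. Between 5 and 10 CPM, 24.8% of LTR members are called lower, against 11.4% of all tested peaks.

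By subfamily, RMER6, an older rodent ERVK LTR group, had 32 of 156 members lower and 3 higher in Q140, with a median log2 change of -0.26. Within it, RMER6A had 14 of 62 lower and 0 higher, and RMER6C 16 of 65 lower and 2 higher. RLTR13 names gave 14 lower and 2 higher of 62, RMER21 7 lower and 0 higher of 35, RMER5 of ERV1 7 lower and 3 higher of 44, and MLTR14 of ERV1 7 lower and 1 higher of 40. RMER19 had 12 lower and 3 higher of 110. RLTR31D_MM was mixed, with 4 lower and 3 higher of 22, and RLTR17 too, with 2 lower and 3 higher of 24. Over all tested peaks 6.11% were lower and 4.2% higher. RMER6, RLTR13, RMER21 and RMER19 each pool subfamilies by the start of their name. The groups were picked by their counts, so these are a description.

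IAP elements gave few calls. Of 1244 tested peaks with an IAP name, 2 were higher and 2 lower in Q140 (0.322%), against 10.3% of all tested peaks called. The median level of these IAP peaks was 2.22 CPM. Of all tested peaks under 2 CPM 4.04% were called, and of those at 2 to 3 CPM 7.59%. Of 1083 IAPEz-int peaks 0 were higher and 1 was lower. The count of 4 IAP calls was 1 without Q140 F2, 2 in DESeq2 and 5 without Q140 M3. Their median log2 change was -0.08. Among other internal groups, RLTR4_MM-int, relatives of murine leukaemia virus, had 1 of 119, RLTR10-int 1 of 129 and MMERGLN-int 1 of 64. The summed IAPEz-int level ran from 2119 to 4052 CPM within WT alone, so a small shift of the whole group was not detectable in these libraries. Over the 35 subfamilies, the median log2 change in Q140 vs WT was negative in 32, from -0.35 for RMER6A to 0.05 for RLTR17. It was negative in 30 in Q140_Msh3KO vs WT and in 31 in Msh3KO vs WT, and these comparisons share the WT libraries. The subfamilies were measured in the same libraries, so their signs are not independent. In Q140 vs WT 62.8% of members, 62.3% of L1 peaks and 51% of all tested peaks had a negative change. The median over members was -0.095, beside an SD of 0.204 between library medians.

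**Figure D3:**
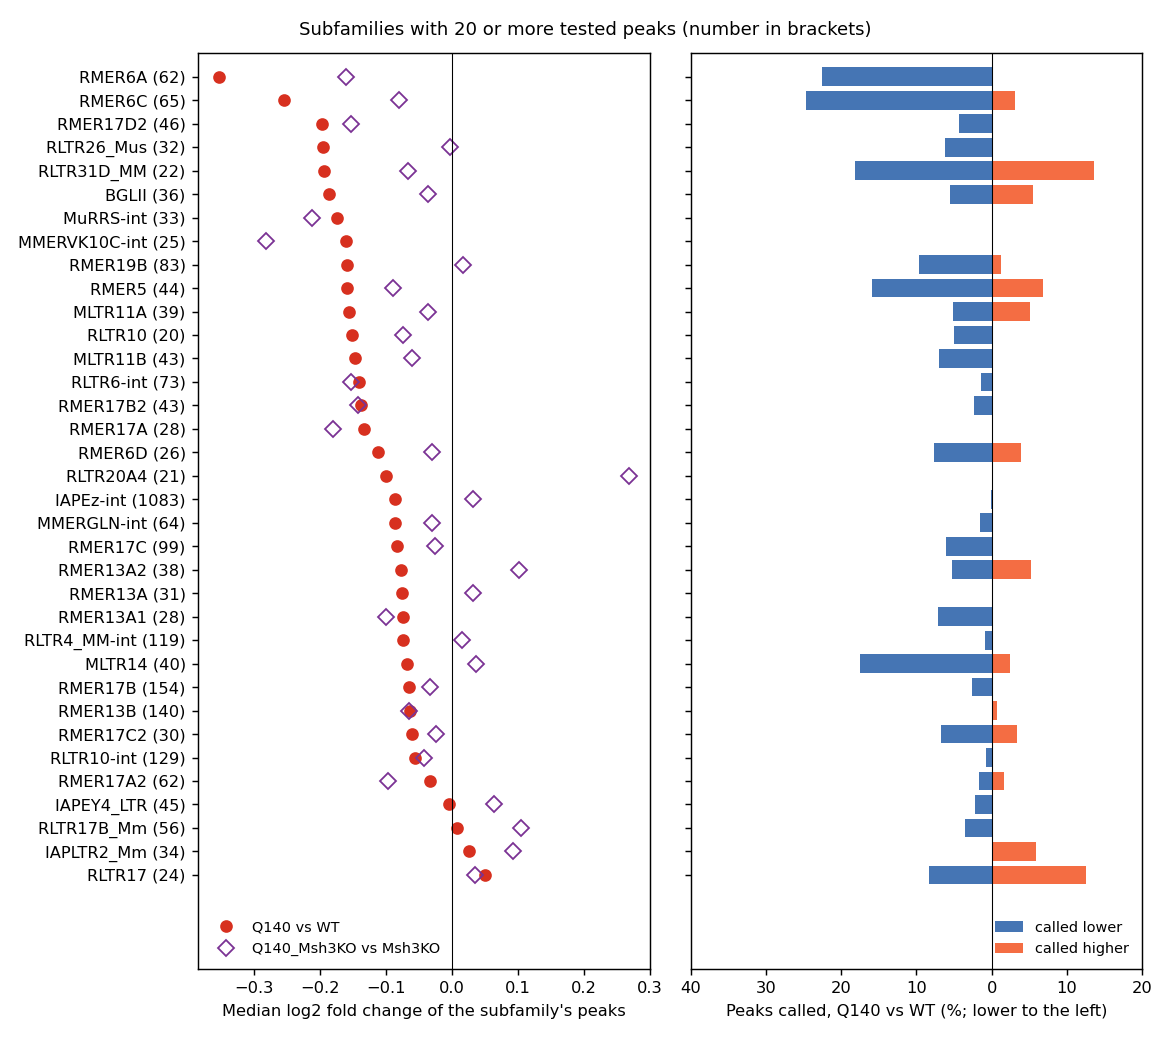
Left, median log2 fold change of each subfamily with 20 or more tested peaks, in Q140 vs WT (circles) and in Q140_Msh3KO vs Msh3KO (diamonds). Right, percentage of its peaks called lower or higher in Q140 than in WT; RMER6A and RMER6C have the lowest circles, and IAPEz-int is almost without calls.

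Of the 8 named losses in Q140, 5 were intergenic LTRs. The RLTR19B peak on chromosome 13 (64562169 to 64562653, GRCm38 as below; nearest listed start that of Fam240b, 64.6 kb away) held 1.17 ± 0.340 CPM in Q140 and 6.37 ± 2.05 CPM in WT. Its log2 fold change was -2.48 ± 0.31 (SE, adjusted p = 2.73e-06), and the highest Q140 library (1.65 CPM) lay under the lowest WT library (4.54 CPM). The RMER6C peak on chromosome 2 (80729285 to 80729840; 90.3 kb from Nup35, which encodes a nuclear pore protein) ran from 2.72 to 5.09 CPM (median 3.8) in Q140 and from 10.4 to 17.6 CPM (median 14.3) in WT. It fell by 1.89 ± 0.16 on the log2 scale (adjusted p = 8.03e-11). The RMER13A1 peak on chromosome 14 (52533222 to 52533807; 37.8 kb from the olfactory receptor gene Olfr1507) held 2.58 to 4.01 CPM (median 3.38) in Q140 and 9.17 to 11.6 CPM (median 10) in WT (log2 -1.61 ± 0.14, adjusted p = 2.44e-10). At each of these 3 peaks no Q140 library reached any WT library.

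The RLTR22_Mus peak near Gm16386 averaged 1.89 ± 0.416 CPM in Q140 and 6.74 ± 1.11 CPM in WT (log2 -1.81, adjusted p = 3.79e-08). The RLTR13E peak near Skint6 averaged 1.26 ± 0.840 and 4.16 ± 0.978 CPM in Q140 and WT (log2 -1.76, adjusted p = 2.05e-06). The RMER3D-int peak 36.8 kb from the cytochrome P450 gene Cyp3a11 averaged 0.521 and 2.04 CPM (log2 -1.90). The intronic RLTR25A peak 14.5 kb from the listed start of the zinc finger gene Zfp990 averaged 0.317 and 1.31 CPM (log2 -2.08). The MER34B-int peak listed with Timm8a1 averaged 0.908 and 2.79 CPM (log2 -1.69). Members whose nearest gene is named as a zinc finger gene, a set chosen after values were seen, were lower in 14 (10.1%) and higher in 1 (0.719%) of 139, against 5.92% and 1.79% of all members and 6.11% and 4.2% of all tested peaks.

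Of the named gains, 2 were intronic. The RLTR13B4 peak on chromosome 8 (55570921 to 55571477; 336 kb from Adam29, a metalloprotease-family gene) ran from 6.62 to 11.7 CPM (median 8.03) in Q140 and from 1.14 to 2.61 CPM (median 2.23) in WT. Its log2 fold change was 2.04 ± 0.19 (adjusted p = 8.54e-10), and the groups did not overlap. The intronic RMER5 peak 28.2 kb from the listed start of D130009I18Rik (chromosome 14, 104667033 to 104667564) averaged 7.16 ± 1.33 CPM in Q140 and 1.95 ± 0.292 CPM in WT (log2 1.87, adjusted p = 3.27e-07). An intronic RLTR25A peak lay 51.3 kb from the listed start of Malt1, which encodes a protease of lymphocyte signalling. It averaged 5.56 ± 1.14 and 2.23 ± 0.832 CPM in Q140 and WT (log2 1.33, adjusted p = 1.08e-05). Of the other named gains, RLTR17 near Ptcd2 is given with the comparison of Q140_Msh3KO and Q140. The remaining ones, RMER16-int near 4930548G14Rik, RLTR17 near 1700018B24Rik, MER34 near Gm12130 and RMER13A2 near Glyatl3, had log2 changes of 1.27 to 1.63 and at most 4.44 CPM on average in Q140. All 16 peaks named here for Q140 vs WT stayed under 0.05 when any single library was left out.

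The peaks with the highest WT levels were not called. An RLTR33 peak in an intron 2.06 kb from the listed start of Brox held 87.5 ± 47.3 CPM in Q140 and 85.6 ± 23.6 CPM in WT, ranging from 49.6 to 176 CPM within Q140. The other 7 of the 8 highest were RMER12B copies among the tandem Rn4.5s genes on chromosome 6, at 37.7 to 51.0 CPM on average in Q140 and 40.4 to 53.3 CPM in WT. Their adjusted p in Q140 vs WT was 0.54 or more, and these tandem copies may share reads.

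Promoters of genes listed for the silencing of these elements were not called in any of the 6 comparisons. The list also held Tet1, Tet2 and Tet3, which encode enzymes that remove DNA methylation. It had 41 names, with an older and a newer name of the same gene in places. Of these names 33 had a peak within 1 kb of a start, 35 peaks in all. In Q140 vs WT 3 of the 35 peaks had an unadjusted p under 0.05 (edgeR), beside 31082 of all 146155 tested peaks. The median log2 change of the 35 peaks was 0.084, and that of all peaks within 1 kb of a start was 0.055. Trim28, the corepressor, held 49.0 ± 4.54 CPM in Q140 and 50.1 ± 6.69 CPM in WT, and Setdb1 18.4 ± 2.11 and 17.0 ± 1.04 CPM. The nearest to a call was Chaf1b, a subunit of the histone chaperone CAF-1, at 10.7 ± 1.02 CPM in Q140 and 8.31 ± 1.21 CPM in WT (log2 0.37 ± 0.13, adjusted p = 0.0598).

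Q140_Msh3KO against Q140 asks what the loss of Msh3 changes when the expanded allele is present. In Q140_Msh3KO, 14 members were higher and 4 lower than in Q140 (18 of 4137, 0.435%), against 0.529% of all tested peaks (0.31% higher and 0.219% lower). The median log2 change over members was 0.001. Of the 18, 17 were LTRs and 1 was internal, and RMER6 gave 5 of the 14 higher ones. Among the 4137 tested members 2332 were LTRs and 156 were RMER6 peaks. RMER6 was picked by its lower calls in Q140 vs WT, which uses the same Q140 libraries. Peaks that are low in these libraries tend to come out higher here, so the RMER6 count is a description. Without Q140 F2 and Q140_Msh3KO M1 the count was 5 (4 higher and 1 lower). Leaving out single libraries gave 8 to 32, with over 1.5-fold change without Q140 M2 (9), Q140_Msh3KO F1 (9), F2 (8), F3 (28), M1 (10) or M2 (9), or Msh3KO F2 (32).

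The RMER6C peak near Nup35 led this list. It held 7.24 to 10.9 CPM (median 8.79) in Q140_Msh3KO, against 2.72 to 5.09 CPM in Q140, with no overlap (log2 1.21 ± 0.17, adjusted p = 3.56e-05). The intronic MLTR18B_MM peak lay 67.4 kb from the listed start of Golim4, a Golgi membrane protein gene. It averaged 9.98 ± 2.39 CPM in Q140_Msh3KO, 4.59 ± 1.04 CPM in Q140, 13.6 ± 2.10 CPM in Msh3KO and 13 ± 3.06 CPM in WT (log2 1.09 over Q140, adjusted p = 0.000216). The intronic RLTR53_Mm peak lay 2.04 kb from the listed start of Ccdc155, a meiotic chromosome protein gene. It averaged 8.22 ± 1.66, 4.16 ± 1.02, 10.1 ± 2.92 and 11.7 ± 1.19 CPM in the same order of genotypes (log2 0.96, adjusted p = 0.00314). The RMER19B peak 567 kb from the start of Celf2, an RNA-binding protein gene, averaged 9.02 ± 1.45 CPM in Q140_Msh3KO and 5.16 ± 0.826 CPM in Q140 (log2 0.78, adjusted p = 0.00907). The RMER13A1 peak near Olfr1507 held 5.09 to 6.69 CPM in Q140_Msh3KO, above every Q140 library (2.58 to 4.01 CPM; log2 0.76, adjusted p = 0.00704).

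Lower in Q140_Msh3KO were the RLTR17 peak near Ptcd2, the RLTR13B4 peak near Adam29, the RMER5 peak near D130009I18Rik and the MYSERV6-int peak near Gm5570. The RLTR17 peak (chromosome 13, 99271195 to 99271670) held 1.74 to 2.31 CPM in Q140_Msh3KO, 3.87 to 5.67 CPM in Q140, 1.28 to 2.31 CPM in Msh3KO and 0.686 to 2.78 CPM in WT. Only the Q140 libraries stood apart at this peak (log2 -1.19 ± 0.20 over Q140, adjusted p = 0.00123), which lies within 20 Mb of Msh3. The RLTR13B4 peak averaged 4.88 ± 1.12 CPM in Q140_Msh3KO, between 8.61 ± 1.95 CPM in Q140 and 2.10 ± 0.565 CPM in WT (log2 -0.83 over Q140, adjusted p = 0.00778). Of the 12 named peaks, 7 kept adjusted p under 0.05 whichever library was left out. The RLTR22_Mur peak near Vmn1r224 lost it in 8 of 24 such fits (adjusted p up to 0.116, without Q140_Msh3KO M2), the RLTR22_Mus peak near Gm16386 in 7 (0.115, without Q140_Msh3KO F2), MYSERV6-int in 7 (0.105, without Q140 F2), RMER5 in 5 (0.0975, without Q140_Msh3KO F2) and RMER6A near Flrt3 in 4 (0.0657, without Q140 M3).

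**Figure D4:**
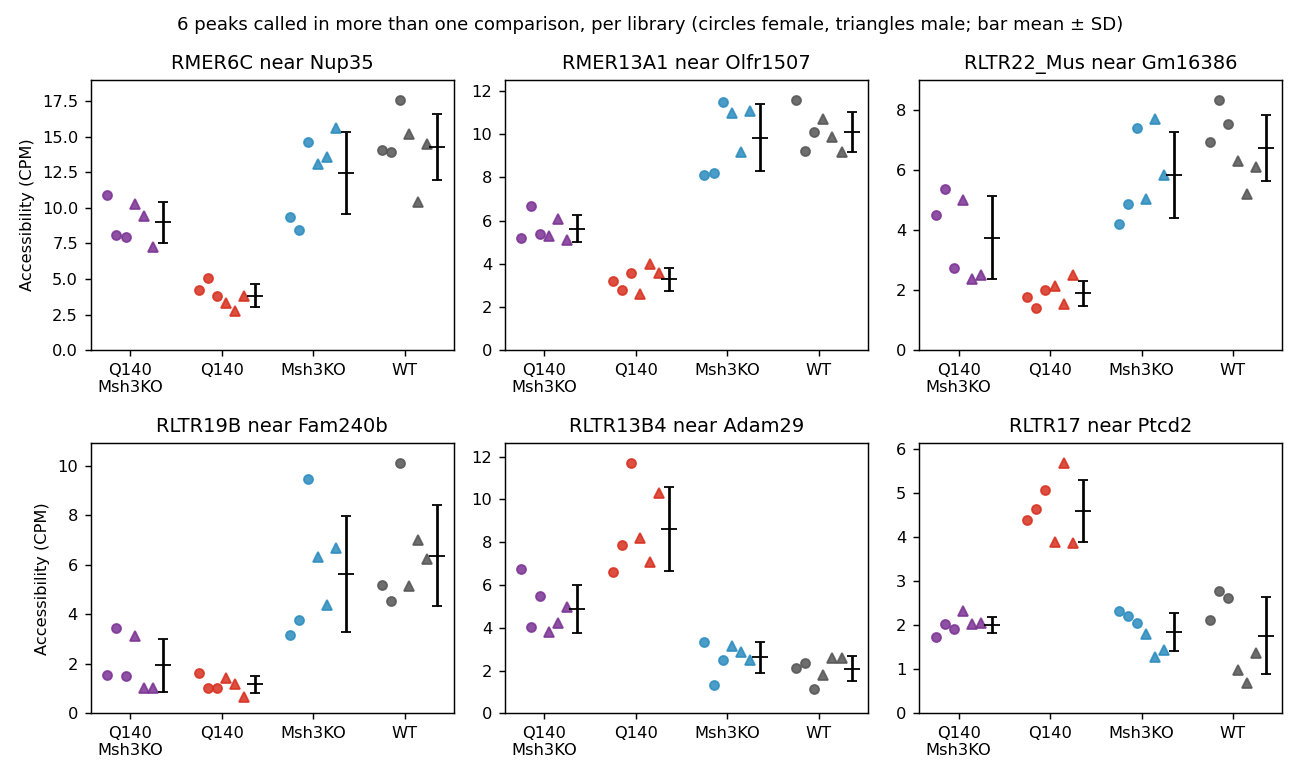
Accessibility in CPM per library of 6 members called in more than one comparison, by genotype, with mean ± SD beside the points. At the RMER6C peak near Nup35 the Q140_Msh3KO libraries (7.24 to 10.9 CPM) lie above all Q140 libraries (2.72 to 5.09 CPM).

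Whether the Q140 effect differed with and without Msh3 was tested directly by the interaction. A single member passed, the RMER6C peak near Nup35, with a log2 difference of -1.38 (adjusted p = 0.00348), and 0.0226% of all tested peaks passed. With Msh3 present its Q140 effect was -1.89, and without Msh3 it was -0.51 ± 0.15 (adjusted p = 0.189). The call held in every fit that left out 1 library (adjusted p up to 0.0198, without Q140 M2). The number of members passing was 3 without Q140 F1, Msh3KO F3 or WT M2 and 2 without Q140_Msh3KO M3.

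Q140_Msh3KO against Msh3KO measures the effect of the expanded allele without Msh3, in animals not used for Q140 against WT. Here 15 members were lower and 0 higher in Q140_Msh3KO (0.363%), against 0.116% of all tested peaks (0.0233% higher and 0.0924% lower). The median over members was -0.027, and it ran from -0.101 without Q140_Msh3KO M1 to 0.041 without Msh3KO F1, so its sign turned when 1 library was left out. Of the 15 members, 13 (86.7%) were also called in Q140 vs WT, which is 4.08% of those 319. Over all tested peaks, 130 of the 135 lower and 32 of the 34 higher peaks were also called in the same direction in Q140 vs WT. The log2 changes of the 15 had a median of -0.92, from -0.68 to -1.63. Of the 245 members lower in Q140 vs WT, 228 (93.1%) had a negative log2 change here, with a median of -0.34 beside -0.81. Of the 74 higher ones, 66 (89.2%) were positive, with a median of 0.29 beside 0.81. Over all tested peaks the same shares were 92.3% of 8924 lower and 88.1% of 6142 higher peaks. Their medians here were -0.256 beside -0.684 for the lower and 0.255 beside 0.74 for the higher peaks. All of these peaks were chosen by their calls in Q140 vs WT, which favours larger values there.

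The RMER13A1 peak near Olfr1507 held 5.09 to 6.69 CPM in Q140_Msh3KO and 8.09 to 11.5 CPM in Msh3KO, with no overlap (log2 -0.82 ± 0.13, adjusted p = 0.00316). The RLTR13E peak near Skint6 averaged 1.62 ± 0.442 CPM in Q140_Msh3KO and 4.66 ± 1.09 CPM in Msh3KO (log2 -1.53 ± 0.23, adjusted p = 0.00152). This peak stayed called whichever library was left out. The RMER3D-int peak near Cyp3a11 averaged 0.782 ± 0.242 and 2.45 ± 0.850 CPM in the same groups (log2 -1.63, adjusted p = 0.0133; 0.0575 without Q140_Msh3KO F3). The RLTR19B peak near Fam240b averaged 1.95 ± 1.07 and 5.62 ± 2.33 CPM (log2 -1.57, adjusted p = 0.0231; 0.127 without Q140_Msh3KO M3). The RMER19A peak 6.19 kb from the start of Trpm5, an ion channel gene of taste cells, averaged 5.09 ± 1.52 and 9.20 ± 3.19 CPM (log2 -0.93, adjusted p = 0.0214; 0.135 without Q140_Msh3KO M3). The count as a whole leaned on single libraries: it was 2 without Q140_Msh3KO F3 or M3, 4 to 8 without Q140_Msh3KO F1 or M2 or Msh3KO F3, M1, M2 or M3, and 25 without Msh3KO F2.

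**Figure D5:**
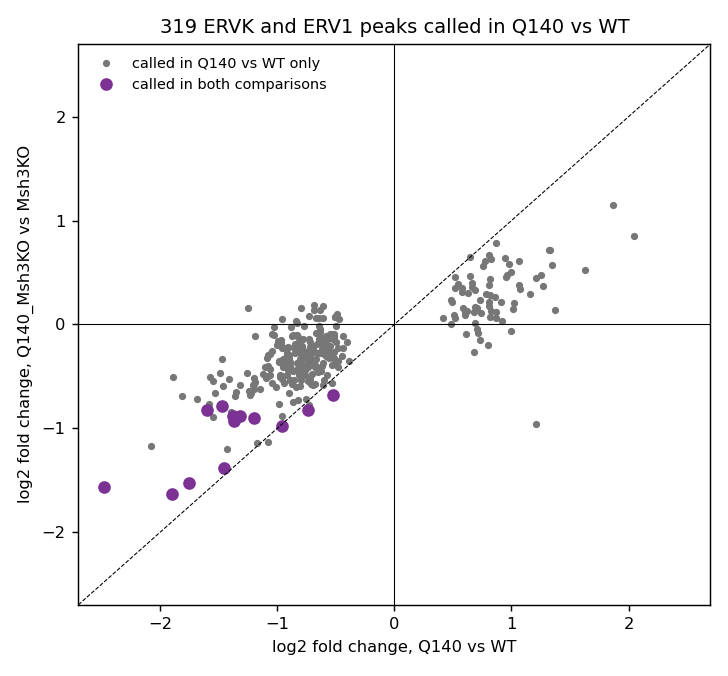
Log2 fold change of the 319 members called in Q140 vs WT (horizontal) against their log2 fold change in Q140_Msh3KO vs Msh3KO (vertical), which share no animals; the dashed line marks equal values. Most points lie nearer to 0 on the vertical axis, with medians of -0.34 beside -0.81 for the lower members, and 13 are called in both. The points were chosen by their calls on the horizontal axis, which favours larger values there. Over all tested peaks chosen likewise, the medians of the lower ones were -0.256 beside -0.684.

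Q140_Msh3KO against WT shares its animals with the comparisons above. It gave 24 lower and 3 higher members in Q140_Msh3KO (0.653%), against 0.525% of all tested peaks (0.252% higher and 0.274% lower), with a median of -0.094. The 3 higher peaks were RLTR13B4 near Adam29 (log2 1.21, adjusted p = 0.00219), RLTR25A near Malt1 (0.86, adjusted p = 0.0478) and MER67D on chromosome 18 (52139249 to 52139611; 0.85, adjusted p = 0.0453). RLTR25A lost the call in 12 and MER67D in 11 of 24 fits that each left out 1 library. A pair of RLTR45 peaks on chromosome 13, near Urml and Gm8016, averaged 1.97 ± 0.973 and 2.28 ± 0.887 CPM in Q140_Msh3KO and 4.25 ± 1.21 and 4.63 ± 0.979 CPM in WT. The RodERV21-int peak 80.7 kb from Chd6, a chromatin remodeller gene, averaged 1.88 ± 0.386 CPM in Q140_Msh3KO and 3.85 ± 0.792 CPM in WT (log2 -0.999, adjusted p = 0.00768). The count was 9 without Q140_Msh3KO M3, 14 without F1 or F3, 17 without M2, and 13, 12 and 13 without WT F3, M1 and M3.

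Msh3KO against WT asks what the loss of Msh3 does alone. No member was called by edgeR, and 0 were called by DESeq2 or limma-voom, against 0.013% of all tested peaks. At an unadjusted p under 0.05 (edgeR) there were 153 of 4137 members, beside 4875 of all 146155 tested peaks. The median was -0.059, from -0.111 without Msh3KO F2 to 0.002 without Msh3KO F3. The smallest adjusted p of a member was 0.255. That smallest value belonged to the RMER17C peak near Map1b (chromosome 13, 99654802 to 99655198), a neuronal microtubule protein gene, within 20 Mb of Msh3. It held 0.675 to 2.04 CPM in Q140_Msh3KO, 1.58 to 3.42 CPM in Q140, 0.683 to 2.89 CPM in Msh3KO and 2.05 to 3.65 CPM in WT. In Msh3KO, 4 libraries lay between 0.683 and 0.833 CPM and the 2 others, F1 (2.89) and F2 (1.99), were higher. It was lower in Q140_Msh3KO than in WT (log2 -1.38, adjusted p = 0.0166; 0.0845 without Q140_Msh3KO M3). Without Msh3KO F1, 1 member was called in Msh3KO vs WT.

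Members near the altered genes were counted apart. Within 20 Mb of Htt on chromosome 5 lay 75 members, with a median log2 change of -0.32 in Q140 vs WT, -0.18 in Q140_Msh3KO vs Msh3KO and -0.04 in Msh3KO vs WT. For all 2659 tested peaks in this window the medians were -0.04, -0.03 and 0, and for the 172 members elsewhere on the chromosome the first was -0.12. By distance from Htt, the median in Q140 vs WT was -0.1 for 9 members within 5 Mb, -0.12 for 21 members at 5 to 10 Mb and -0.37 for 45 members at 10 to 20 Mb. Of the 75, 6 were lower and 1 higher in Q140, where 172 of all 2659 peaks in the window were lower and 113 higher. The part of the position near Htt in these values was not tested. The RMER6C peak near Lcorl (chromosome 5, 45829234 to 45829848) averaged 6.54 CPM in Q140_Msh3KO, 3.84 CPM in Q140, 9.18 CPM in Msh3KO and 10.3 CPM in WT (log2 -1.41 in Q140 vs WT, adjusted p = 5.87e-08). Near Msh3 there were 73 members, 4 lower (5.48%) and 2 higher (2.74%) in Q140, against 6.11% and 4.2% of all tested peaks. Peaks of other repeats within 20 Mb of Htt, 465 in number, had a median of -0.16 in Q140 vs WT. Without both windows the Q140 vs WT count was 306.

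By sex, no member differed in its Q140 effect between males and females, where 0% of all tested peaks did (edgeR, genotype by sex model). In that model 196 of 4137 members had an unadjusted p under 0.05, beside 4806 of all 146155 tested peaks. DESeq2 and limma-voom were not run for this term. The median Q140 effect over members was -0.254 in males and 0.057 in females, and over all tested peaks -0.013 in males and 0.002 in females. Only 3 libraries made up the Q140 females. Among them, Q140 F2 had an X chromosome share (1.466%) below that of every male library and was kept as labelled. Medians by sex without it are not given here. L1 peaks had medians of -0.249 in males and 0.113 in females, and internal members -0.333 in males and 0.145 in females. Called members were mostly lower in both sexes: 87 lower and 21 higher in males, against 1.59% and 1.33% of all tested peaks, and 95 lower and 18 higher in females, against 1.98% and 1.06% of all tested peaks. The internal sum was high in Q140 F1 (6382 CPM) among Q140 females and in WT M1 and M2 (6324 and 5694 CPM) among WT males. Whether these libraries set the sign was not tested.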

How the data were processed

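ATAC-seq was measured in 24 libraries, 1 per animal, grouped by the genotype in the labels. The deposited table held raw read counts per peak for 1 set of 147020 peaks on GRCm38. BWA, SAMtools, Picard, MACS2 and featureCounts are named in the submitters' processing notes. The treatment of duplicates, of reads with several placements and of the Tn5 offset is not given in the sources used here. Reads lost or split among near-identical copies would lower the counts of young elements, and this was not tested.

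Each peak carried the repeat annotation and the nearest start of the file headers, and the listed gene need not be the one a peak acts on. The counts were fitted in edgeR 4.0.16 (R 4.3.3) with TMM scaling, filterByExpr at a minimum count of 10, robust quasi-likelihood and terms for genotype and sex over all 24 libraries. P-values were adjusted by Benjamini-Hochberg over all 146155 tested peaks, with calls at 0.05. CPM values use the TMM-scaled library size. The steps were tested on simulated data. Total counts ran from 4372251 to 11736557, and at a median of 18 counts per member only large changes at single peaks were detectable.

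The members and lists were chosen with earlier results of these data known. Named peaks are the 8 with the highest WT level and, for each comparison, up to 8 called peaks per direction by size of log2 fold change. Other tools were DESeq2 1.42.0 and limma 3.58.1, and the alternatives also covered scaling, filters, model terms and left-out libraries. Equal replicate numbers in the labels were checked by correlation, which did not settle whether they pair the animals. The main fit did not use them. No 2 libraries of a genotype held identical values. Sequences come from RefSeq promoter windows (GRCm38.p6), so members away from an annotated start are not shown, and the GC content of members was not analysed here.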

Additional observations from a re-analysis of the deposited data

Results flagged for a closer look

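In 15 of 192 genotype groups of 6 libraries (7.81%), 1 library stood apart by Dixon's criterion. Chance gives about 1 in 20 for independent groups, and these are not independent, since the sums share peaks. Of the 15, 6 are the library Q140_Msh3KO M1, in sums over overlapping sets of members. It had the highest summed CPM of its genotype over all members (15830, next 12960), ERVK (13010, next 10690), ERV1 (2827, next 2338), internal members (6574, next 4835), LTR members (9259, next 8405) and IAPEz-int (4366, next 2942). As an unscaled share of counts, members took 1.463% in this library, 1.332% in Q140_Msh3KO F3 and 1.174% in Q140_Msh3KO F1, the lowest. Q140_Msh3KO M1 also had the highest shares of counts in promoter peaks (24.84%) and in its 10 largest peaks (12.66%). The part of these shares and of the scaling in its sums was not tested.

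WT F2 had the highest RMER6 sum of its genotype, at 840 CPM with the next at 689 CPM. WT M1 was highest at 2 of the RMER12B copies in the Rn4.5s region, with 60.6 CPM (next 45) at chr6:47737791-47738740 and 54.5 CPM (next 41.6) at chr6:47682021-47682308. The MER34 peak near Gm12130 held 1.28 CPM in Msh3KO M2 (next 0.722) and 1.29 CPM in WT F1 (next 0.79). The RMER13A2 peak near Glyatl3 held 2.83 CPM in Q140_Msh3KO M3 (next 2.19) and 2.21 CPM in Msh3KO M1 (next 1.59). The RLTR13E peak near Skint6 held 6.83 CPM in Msh3KO F3 (next 4.62). The MYSERV6-int peak near Gm5570 held 5.21 CPM in Q140_Msh3KO F1 (next 3.11).

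The Q140 effect at the RMER6C peak near Nup35 differed with and without Msh3, with a log2 difference of -1.384 (adjusted p = 0.00348, edgeR interaction term).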

How the results depend on the processing

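The Q140 vs WT count stayed within 1.5 times of 319 under every setting over all members (280 with a mean of at least 20 counts to 349 with no filter; 248 to 341 leaving out 1 library), and 77 of the called were ERV1. Its median ran from -0.167 to -0.018 leaving out 1 library, beside an SD of 0.204 between library medians. The medians of the other comparisons ran from -0.081 to 0.076 in Q140_Msh3KO vs Q140, -0.101 to 0.041 in Q140_Msh3KO vs Msh3KO, -0.173 to -0.048 in Q140_Msh3KO vs WT, -0.111 to 0.002 in Msh3KO vs WT and -0.14 to -0.001 for the interaction. RMER6 calls ran from 28 to 38 and IAP calls from 1 to 5. Q140_Msh3KO vs Q140 gave 28 calls with a mean of at least 20 counts, 5 without Q140 F2 and Q140_Msh3KO M1, 4 in ERV1 alone, and 8 to 32 leaving out 1 library. Q140_Msh3KO vs Msh3KO gave 29 (2 higher, 27 lower) with the promoter share as a covariate, added after seeing the data, 2 in ERV1 alone, and 2 to 25 leaving out 1 library. Q140_Msh3KO vs WT gave 3 in ERV1 alone and 9 to 35 leaving out 1 library. Msh3KO vs WT gave 0 to 1. The interaction gave 3 with total counts, DESeq2 or the promoter covariate, 2 with no filter, a mean of at least 20 counts or no sex term, 0 in ERV1 alone, and 1 to 3 leaving out 1 library. No named peak reversed. Of 48 named calls, 13 were lost without Q140 F2 and Q140_Msh3KO M1, 5 in limma-voom, 3 with the covariate and 2 with RLE factors, and 19 were lost without at least 1 single library; 43 had a DESeq2 value and none of these was lost. The causes were not tested.

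Deviations of same-numbered animals correlated from -0.435 to 0.445 over 36 pairs (median 0.026), against a median of -0.0264 over 72 other pairs. Of the 24 libraries 14 correlated best with their own number, so a pairing was neither shown nor excluded. With the replicate block the counts were 318 in Q140 vs WT, 20 in Q140_Msh3KO vs Q140, 12 in Q140_Msh3KO vs Msh3KO, 32 in Q140_Msh3KO vs WT, 0 in Msh3KO vs WT and 3 for the interaction. Of the 48 named calls 2 were lost under the block.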

Other observations

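Among the 319 members called in Q140 vs WT, 1 weak peak lay far from the others when both Q140 comparisons were set side by side. It was chosen after its values were seen. This RMER13B peak (chr1:104231195-104231394, nearest listed start that of Cdh20, a cadherin gene) averaged 0.566 CPM in Q140_Msh3KO, 1.65 CPM in Q140, 1.12 CPM in Msh3KO and 0.685 CPM in WT. Its log2 fold change was 1.21 in Q140 vs WT (adjusted p = 0.0471, edgeR) and -0.96 in Q140_Msh3KO vs Msh3KO (adjusted p = 0.578). The interaction of 2.17 did not pass (adjusted p = 0.207).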
